A study of Mus musculus and Homo sapiens with 67 samples.

Results

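PSN1 is a human pancreatic cancer cell line. The data described here compare PSN1 cells treated with RMC-6236, which inhibits RAS proteins in their active state, with cells that received only the solvent DMSO, which served as the control. Each arm had 3 RNA-seq libraries, so that the comparison used 6 of the 67 samples of the series. The deposited table for this line listed 60564 genes, and 13358 of them were tested because they reached 1 FPKM (fragments per kilobase of transcript, scaled to the mapped fragments of the library) in at least 3 of the 12 PSN1 libraries. The other 6 libraries of the line were 3 with tazemetostat, an inhibitor of the histone methyltransferase EZH2, and 3 with tazemetostat and RMC-6236 in combination. They entered the same model and so shared its estimate of the spread. The wider series treated several human and mouse pancreatic cancer lines and tumours with the same drugs. No dose and no treatment time were given for PSN1, and nothing stated that the 3 libraries of an arm came from separate cultures, so the p-values measure only the spread between these libraries, which may be technical.

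RAS proteins are switches on the inner face of the cell membrane. Exchange factors such as SOS1 load them with GTP, GTPase activators such as NF1 turn them off, and in the active state they recruit RAF kinases, which start the kinase relay through MEK to ERK. ERK phosphorylates transcription factors that raise early genes, cyclin D and growth programmes, and it also induces its own brakes, the DUSP phosphatases and the Sprouty and SPRED proteins. RMC-6236 first binds the abundant chaperone cyclophilin A, encoded by PPIA, and the resulting pair then covers active RAS and blocks its contact with RAF.

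The libraries of each arm were close to each other. The number of genes at 1 FPKM or more was 11632 to 11653 in the control libraries and 12403 to 12436 with RMC-6236. Pearson's r of log2(FPKM + 1) across genes was 0.99508 to 0.99527 between control libraries and 0.99396 to 0.99496 between RMC-6236 libraries. The first principal component of the 12 libraries held 73.3% of the variance and separated both arms without overlap. Mitochondrially encoded genes took 22.67 to 23.2% of the summed FPKM in control and 24.15 to 25.23% in treated cells. FPKM values hold no read numbers, so the depth behind each value is unknown and no counting interval can be given.

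Markers of the line's identity were present in all 6 libraries. All 7 ductal and epithelial markers (EPCAM, KRT7, KRT8, KRT18, KRT19, CDH1, MUC1) were above 1 FPKM, and their sum was 605.1 to 618.0 FPKM in control and 934.6 to 960.3 in treated cells. Most of the difference in the sum lay in KRT19 (from 117 to 316 FPKM) and KRT8 (from 196 to 299 FPKM), while KRT18 was not called and EPCAM, a surface marker of epithelia, fell from 10.5 to 8.11 FPKM (-0.33 ± 0.06 on the log2 scale, limma adjusted p = 0.00024). The islet markers INS and GCG, the T cell marker CD3E, the pan-leukocyte marker PTPRC, the endothelial markers CDH5 and VWF and the acinar enzyme CELA3A stayed below 0.05 FPKM in every library, and INS, CD3E and CELA3A were listed at 0 throughout. Other markers of these types were low but higher with RMC-6236. The acinar gene PRSS1 was at 0.256 to 0.537 FPKM in control and 0.697 to 1.29 in treated cells, the acinar gene CPA1 at 0 to 0.0502 and 0.317 to 0.516, and the endothelial marker PECAM1 at 0.549 to 0.616 and 0.997 to 1.08. None of the 3 reached the level filter. All 5 fibroblast markers reached 1 FPKM in some library, and their sum was 25.06 to 25.46 FPKM in control and 111.2 to 114.3 in treated cells. CD68, which macrophages and many epithelial lines express, was at 6.15 to 9.08 FPKM in control and 11.4 to 16.4 in treated cells. In a bulk library, a smaller number of cells of 1 kind and less RNA per cell cannot be told apart.

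Most tested genes differed between the arms. At a Benjamini-Hochberg adjusted p under 0.05 in limma, 80.4% of the 13358 genes were called, 45.8% higher and 34.6% lower with RMC-6236. A change of at least 2-fold on the log2(FPKM + 1) scale was found for 827 higher genes (6.19%) and 670 lower genes (5.02%), a change of 4-fold for 103 (0.771%) and 62 (0.464%), and one of 8-fold for 20 (0.15%) and 10 (0.0749%). The balance of the 2-fold counts depends on the scaling, since median ratio scaling gave 709 higher and 794 lower genes. In what follows, a pair of levels without library values gives the arm means of 3 libraries, and the number in parentheses after it is the log2 change of RMC-6236 minus control, with its standard error where ± is shown. The pseudocount of 1 FPKM understates the change of low genes. The median change of all tested genes was 0.08 on the log2 scale, and the 5th and 95th percentiles were -1.01 and 1.09. Because 81.4% of the genes had no overlap between the 3 control and 3 RMC-6236 values, a call alone carries little here, and sizes and list counts are read against these shares.

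The share of large falls was lower below 20 FPKM than above it, while the share of large rises had no such order. Of 656 genes whose higher arm mean was below 1 FPKM none changed 2-fold, which the pseudocount makes impossible at such levels. The pseudocount also shrinks changes at 1 to 5 FPKM, so the shares of low and high genes are not directly comparable. Of 4901 genes whose higher arm mean was 1 to 5 FPKM, 286 rose (5.84%) and 105 fell (2.14%) at least 2-fold. Of 5224 genes at 5 to 20 FPKM these counts were 352 (6.74%) and 297 (5.69%). Of 2227 genes at 20 to 100 FPKM, 169 rose (7.59%) and 233 fell (10.5%), and of 350 genes above 100 FPKM, 20 rose (5.71%) and 35 fell (10%). There were 748 genes below 1 FPKM in all control libraries that reached it in all RMC-6236 libraries, and 186 with the reverse pattern. No test was made of this relation to the level.

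**Figure D1:**
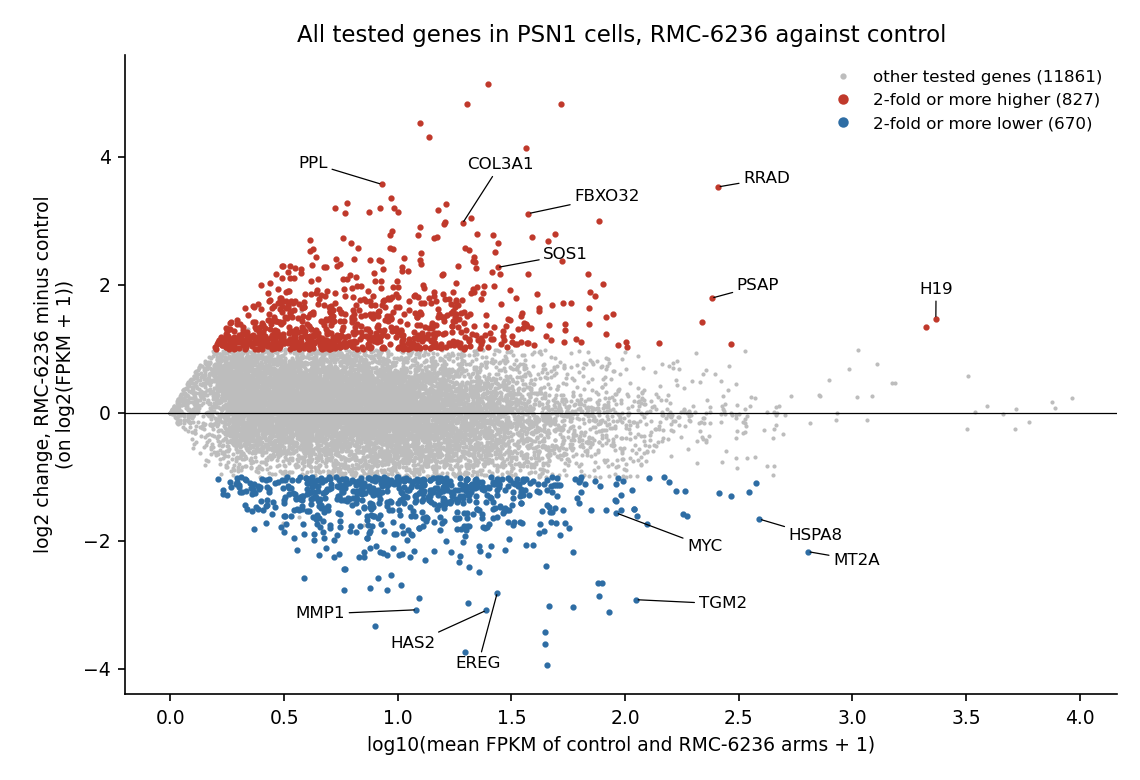
Each dot is 1 of the 13358 tested genes. The horizontal axis is log10 of the mean FPKM of the control and RMC-6236 arms plus 1, the vertical axis the log2 change of RMC-6236 minus control. Red dots are the 827 genes at least 2-fold higher and blue dots the 670 at least 2-fold lower at an adjusted p under 0.05. The wedge at the left edge is set by the pseudocount, and among the most abundant genes H19 was higher and MT2A lower.

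The RAS genes themselves did not move together. Of 9 genes, 8 RAS-family genes and the drug's partner PPIA, 5 rose, 3 fell and 1 was not called, with a median change of 0.16. NRAS measured 28.2, 28.6 and 28.9 FPKM in control and 33.6, 31.2 and 31.6 with RMC-6236. The higher values were all in the treated arm, and the change was 0.16 ± 0.03 (SE) on the log2 scale with a limma adjusted p of 0.00053. HRAS fell from 22.1 to 14.3 FPKM (log2 change -0.60 ± 0.04). PPIA, the gene of cyclophilin A, was the most abundant of the 9, at 233, 232 and 236 FPKM in control and 191, 193 and 191 in treated cells. All treated values lay below all control values, a change of -0.28 ± 0.01 (adjusted p = 7.9e-10); PPIA has many processed pseudogenes, so its value depends on how shared reads were assigned.

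RRAS was the only one of these 9 genes to pass 2-fold. This close relative of the classical RAS genes, known for a role in integrin adhesion, measured 7.31, 7.46 and 7.30 FPKM in control and 22.4, 24.4 and 21.4 with RMC-6236. The arms were far apart, with a log2 change of 1.502 ± 0.06 (adjusted p = 1.6e-10). MRAS, which forms a phosphatase complex with SHOC2 that activates RAF, was at 0.673 to 0.876 FPKM in control and 1.78 to 1.85 in treated cells (0.66). RAP1A rose by 0.33, RRAS2 fell by 0.45 on the log2 scale, and RAP1B was at 7.88 ± 0.17 (SD, n = 3) FPKM in control and 7.67 ± 0.14 with the drug, which did not pass.

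Among exchange factors, GTPase activators and adaptors of RAS, SOS1 stood apart. SOS1, the main factor that loads GTP onto RAS after receptor activation, measured 8.32, 8.74 and 8.21 FPKM in control and 44.8, 43.6 and 45.1 with RMC-6236. No library of either arm came near the other arm, and the change was 2.27 ± 0.03 on the log2 scale (adjusted p = 9.6e-15). Its paralogue SOS2 went from 2.54 to 5.66 FPKM (0.91), SHOC2 from 5.34 to 8.10 FPKM (0.52) and the GTPase activator NF1 from 2.85 to 3.69 FPKM (0.28). Of the 14 tested genes in this list 6 rose and 7 fell, and the median was 0.00. Its sign changed under another scaling of the libraries (-0.05 after median ratio scaling), so the list had no direction. The largest falls were those of the GTPase activator RASA3 (from 12.4 to 8.47 FPKM, -0.50), of PTPN11, which encodes the phosphatase SHP2 (from 30.4 to 21.9 FPKM, -0.45), and of the adaptor SHC1 (from 136 to 105 FPKM, -0.37). GAB2 was not called (0.11), but was called in 4 of the alternative fits, with 0.47 (adjusted p = 0.0093) at a pseudocount of 0.1 FPKM. RASGRP1, RASGRP2, RASGRP3, RASGRF1, RASA4, RASAL1 and RASAL3 did not reach the level filter.

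The kinases below RAS were mostly higher. Of 15 tested genes for RAF, MEK, ERK, scaffolds and RSK kinases 10 rose and 3 fell, where 45.8% of all genes rose and 34.6% fell. The median was 0.35 against 0.08 for all genes. KSR1, a scaffold that holds RAF and MEK together, measured 4.07, 4.03 and 4.05 FPKM in control and 10.9, 11.5 and 10.9 with RMC-6236. It was the only member past 2-fold, at 1.26 ± 0.03 (adjusted p = 8.2e-13), which is 6.67% of the list beside 6.19% of all genes. BRAF was low in both arms, at 0.814 to 0.908 and 1.08 to 1.21 FPKM (0.19). The MEK pair split. MAP2K1, the gene of MEK1, fell from 27.4 to 15.6 FPKM (-0.77 ± 0.03), whereas MAP2K2, the gene of MEK2, rose from 23.3 to 32.9 (0.48 ± 0.03). MAPK3, the gene of ERK1, rose by 0.85, from 6.83 to 13.1 FPKM. The kinases MKNK1 and MKNK2, which phosphorylate the translation factor eIF4E downstream of ERK, rose by 0.80 and 0.72. ARAF and RPS6KA2 were not called.

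Most genes of the ERK feedback brakes were lower. Of 18 tested feedback genes 14 fell, 8 of them at least 2-fold, 3 rose and 1 was not called, with a median of -0.94. DUSP2, a nuclear phosphatase of ERK, measured 12.96, 12.7 and 13.6 FPKM in control and 1.55, 1.17 and 1.39 with RMC-6236. Every treated library lay below every control library, a change of -2.57 ± 0.08 (adjusted p = 2e-11). DUSP5, another nuclear ERK phosphatase, measured 10.6, 11.1 and 11.1 FPKM in control and 2.65, 2.57 and 2.30 in treated cells (-1.77 ± 0.05). SPRY2 and SPRY1, Sprouty proteins that limit signalling from receptors to RAS, fell from 17.2 to 3.82 FPKM and from 18.9 to 4.85 FPKM (-1.91 and -1.77). SPRED1, which brings NF1 to the membrane, fell by 1.41 on the log2 scale, and the changes of SPRED2, DUSP7 and DUSP4, all called, were -0.96, -1.22 and -0.92.

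The 3 feedback genes that went the other way were DUSP1, DUSP10 and DUSP16. DUSP1, a stress-inducible phosphatase that also acts on p38 and JNK, measured 26.9, 30.5 and 30.2 FPKM in control and 77.2, 77.9 and 78.2 with RMC-6236. All treated values were above all control values, a change of 1.39 ± 0.06 (adjusted p = 5.2e-10). DUSP10, which prefers p38 and JNK to ERK, went from 9.14 to 17.5 FPKM (0.87), and DUSP16, also a phosphatase of JNK and p38, rose by 0.18, a call that ended after median ratio scaling (0.11, adjusted p = 0.061). DUSP8 was not called, and SPRY3 and IL17RD did not reach the level filter.

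**Figure D2:**
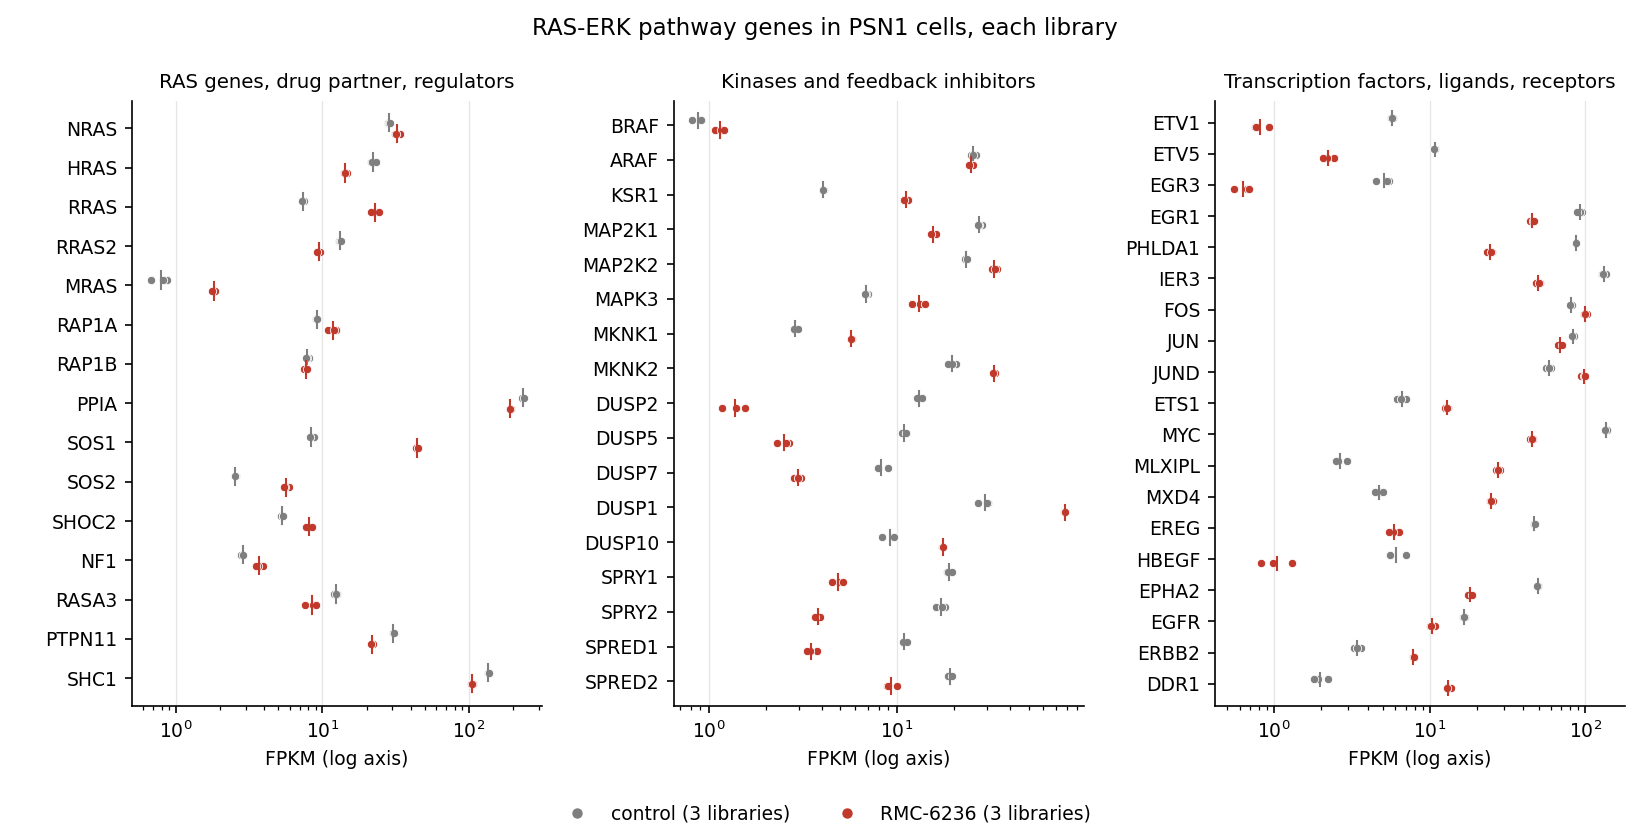
FPKM on a log axis for members of the RAS-ERK pathway, with 1 dot for each library and a vertical tick at the mean of the 3 libraries of an arm. Control is grey and RMC-6236 red. SOS1, KSR1, RRAS, DUSP1, MLXIPL and DDR1 lie to the right in red, whereas DUSP2, the Sprouty genes, ETV1, EGR3, MYC and HBEGF lie to the left.

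Transcription factors induced by or downstream of ERK were lower more often than higher. Of 30 tested members 18 fell, 9 of them at least 2-fold, and 10 rose, none of them 2-fold, with a median of -0.39. ETV1 and ETV5 belong to the PEA3 group of ETS factors, which ERK signalling induces and stabilises. ETV1 measured 5.65, 5.80 and 5.71 FPKM in control and 0.921, 0.749 and 0.763 with RMC-6236 (-1.89 ± 0.05), and ETV5 10.9, 10.9 and 10.6 and 2.42, 2.17 and 2.04 (-1.88 ± 0.04, adjusted p = 7.5e-13). In both genes the arms were well separated. The early growth response factor EGR3 went from 5.10 to 0.633 FPKM (-1.90) and EGR1 from 91.7 to 45.7 FPKM (-0.99). PHLDA1, an immediate early gene, fell from 87.2 to 24.4 FPKM (-1.79) and IER3 from 131 to 49.9 (-1.38).

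AP-1 subunits did not share a direction. JUN fell by 0.28 on the log2 scale, from 83.7 to 68.6 FPKM. FOS, the classical immediate early gene of ERK, measured 81.2, 81.7 and 79.4 FPKM in control and 97.5, 102 and 99.9 with RMC-6236. All 3 treated values were above the control values, a change of 0.30 ± 0.02 (adjusted p = 1.3e-07). JUND, the subunit associated with resting cells, rose by 0.74, from 58.1 to 97.6 FPKM. ETS1 rose by 0.86 and KLF4, an epithelial differentiation factor, by 0.50. ELK4 and KLF10 were not called.

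MYC, the growth-promoting factor that ERK stabilises, measured 136, 137 and 135 FPKM in control and 43.9, 46.2 and 45.7 with RMC-6236. The arms did not overlap, and the change was -1.56 ± 0.02 (adjusted p = 1.3e-14). Of its 13 tested network genes 8 rose and 5 fell. The genes with the largest rises encode partners of MAX or of MLX that oppose MYC or respond to glucose. MLXIPL, the glucose-responsive factor ChREBP, measured 2.94, 2.58 and 2.48 FPKM in control and 26.7, 28.1 and 27.4 in treated cells (2.95 ± 0.04, adjusted p = 9.2e-15). MXD4, a MAX partner that competes with MYC, went from 4.74 to 24.9 FPKM (2.17 ± 0.05). MLXIP, the relative of MLXIPL known as MondoA, went from 5.19 to 13.4 FPKM (1.22), and MYCL rose by 0.95.

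Ligands of the EGF receptor family were lower. Of 10 listed ligands 5 were tested, 4 of which fell and 1 rose. EREG, or epiregulin, measured 46.4, 47.1 and 47.4 FPKM in control and 6.32, 5.80 and 5.44 with RMC-6236, with no overlap and a change of -2.81 ± 0.04 (adjusted p = 6.2e-15). HBEGF went from 6.04 to 1.04 FPKM (-1.79), TGFA fell by 0.28 on the log2 scale, and NRG2, a ligand of ERBB3 and ERBB4, rose by 0.28.

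Receptor tyrosine kinases moved both ways. Of 23 tested members 12 rose and 6 fell, where 45.8% of all genes rose and 34.6% fell. Of the rises 4 were at least 2-fold (17.4% of the list, against 6.19% of all genes). EPHA2, an ephrin receptor linked to cell motility, measured 49.9, 49.7 and 48.8 FPKM in control and 17.7, 17.6 and 18.7 in treated cells, a separated pair of arms with a change of -1.41 ± 0.03. MET and EGFR went from 22.8 to 12.2 FPKM (-0.84) and from 16.7 to 10.3 FPKM (-0.64). In contrast ERBB2 measured 3.61, 3.23 and 3.38 FPKM in control and 7.78, 7.84 and 7.90 with RMC-6236 (1.004 ± 0.04, adjusted p = 3.4e-11). ERBB3, which signals mainly through PI3 kinase, rose by 0.59, the insulin receptor INSR by 0.61 and IGF1R by 0.55. The collagen receptor DDR1 showed the largest change of the list, at 2.22, 1.90 and 1.81 FPKM in control and 12.8, 13.8 and 12.97 in treated cells (2.25 ± 0.05). MST1R, the receptor RON, rose by 1.06, and AXL, MERTK, PDGFRA, FGFR4 and EPHB2 were not called.

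FOXO factors are switched off by AKT and turn on genes of atrophy, quiescence and fasting. Of 22 tested FOXO genes and FOXO-linked genes 15 rose, 9 of them at least 2-fold (against 6.19% of all genes), and 4 fell, with a median of 0.89. FBXO32, a ubiquitin ligase subunit of muscle atrophy, measured 6.71, 6.77 and 6.87 FPKM in control and 67.1, 66.1 and 65.98 with RMC-6236. This rise of 3.11 ± 0.03 (adjusted p = 1.1e-16) left a wide gap between the arms. FOXO6 itself went from 2.08 to 28.4 FPKM (3.26 ± 0.07). PDK4, which slows the entry of pyruvate into the citric acid cycle, went from 1.41 to 11.7 FPKM (2.39), CCNG2, a cyclin of quiescent cells, from 1.74 to 13.1 FPKM (2.37), and TXNIP, a brake on glucose uptake, from 42.2 to 121 FPKM (1.496). CITED2 rose by 2.37, KLHL24 by 1.91, FOXO4 by 1.39, PINK1 by 1.39 and FOXO3 by 0.60. TRIB3 and TRIB2, pseudokinases of the stress response and of AKT control, fell by 0.89 and 0.82 on the log2 scale, and FOXO1, SESN3 and RICTOR were not called.

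Genes of the G1 phase of the cell cycle were lower. Of 19 tested members 17 fell, 9 of them at least 2-fold, and 2 rose, with a median of -0.92. CCND1, the gene of cyclin D1 and a known target of ERK signalling, measured 69.9, 72.6 and 72.2 FPKM in control and 21.3, 21.6 and 20.9 with RMC-6236. The arms did not overlap, and the change was -1.70 ± 0.02 (adjusted p = 1.1e-14). CDC25A, a phosphatase that activates cyclin-dependent kinases, went from 16.8 to 1.77 FPKM (-2.69), and E2F1, which opens S phase, from 30.02 to 5.15 FPKM (-2.33). CCNE2, the gene of cyclin E2, fell by 1.39 on the log2 scale. The members that rose were both of the retinoblastoma family. RBL2, whose protein p130 represses cell cycle genes in quiescent cells, went from 5.65 to 12.3 FPKM (0.997), and RB1 rose by 0.16, a call that also ended after median ratio scaling (0.084, adjusted p = 0.087).

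Of 7 tested inhibitors of cyclin-dependent kinases 5 rose, 1 fell and 1 was not called. CDKN1B, the gene of p27, measured 8.51, 8.81 and 8.53 FPKM in control and 25.8, 24.4 and 24.9 in treated cells. All treated values were above all control values (1.44 ± 0.03, adjusted p = 1.4e-13). CDKN2C, the gene of p18, rose by 0.96, CDKN2D, the gene of p19, fell by 0.58 on the log2 scale, CDKN3 was not called, and CDKN2A did not reach the level filter.

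Every tested gene of DNA replication was lower. All 36 fell, 26 of them at least 2-fold (5.02% of all genes fell that far), with a median of -1.43. MCM10, a factor of origin firing, went from 8.91 to 0.826 FPKM (-2.44), and CDC45, a part of the replicative helicase, from 13.2 to 2.13 FPKM (-2.18). PCNA, the sliding clamp of DNA polymerases, measured 272, 288 and 281 FPKM in control and 91.7, 90.6 and 91.4 with RMC-6236, a clear separation with a change of -1.61 ± 0.03 (adjusted p = 1.9e-14). MCM4, a helicase subunit, and FEN1, a nuclease of lagging strand synthesis, had changes of -1.93 and -1.96. The smallest fall was that of the clamp loader subunit RFC1, at -0.18.

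Genes of mitosis were mostly lower, with a smaller median change. Of 35 tested members 30 fell, 5 of them at least 2-fold, 3 rose and 2 were not called, with a median of -0.45. MYBL2, which activates late cell cycle genes, went from 67.03 to 23.7 FPKM (-1.46), the checkpoint gene MAD2L1 from 12.9 to 3.86 FPKM (-1.52), and AURKB, an Aurora kinase, from 21.5 to 7.95 FPKM (-1.34). CDK1, the mitotic kinase, measured 23.8, 24.02 and 23.7 FPKM in control and 8.10, 8.65 and 8.89 in treated cells (-1.38 ± 0.04), with no overlap of the arms. CCNA2, the gene of cyclin A2, fell by 1.16 on the log2 scale. KIF20A, a kinesin of cytokinesis, rose by 0.35, CDC25B by 0.30 and CENPF by 0.09, which was not called after median ratio scaling (0.0026) or without control library 1 (0.067, adjusted p = 0.053), and CCNB2 and CDC25C were not called. The difference in size between the replication and mitosis lists was not tested.

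Genes that build ribosomes were lower without exception in the list. All 34 tested genes of ribosome biogenesis and RNA polymerase I fell, 25 of them at least 2-fold, with a median of -1.32. Their share of the summed FPKM went from 0.737% in control to 0.305%. NCL, the gene of the abundant nucleolar protein nucleolin, measured 269.9, 269 and 266 FPKM in control and 90.1, 88.9 and 89.3 with RMC-6236, a change of -1.57 ± 0.02 (adjusted p = 4.4e-16). POLR1G, a subunit of RNA polymerase I, went from 17.7 to 2.93 FPKM (-2.25). The nucleolar helicase gene DDX21 went from 64.2 to 18.5 FPKM (-1.74), and LYAR, a nucleolar growth regulator, fell by 2.07 on the log2 scale. UBTF, the factor that recruits RNA polymerase I to ribosomal DNA, fell least, at -0.05, and lost its call in most of the alternative fits, for example at -0.03 (adjusted p = 0.21) with mitochondrial genes left out.

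Genes of the ribosomal proteins themselves hardly moved. Of 78 tested members 10 rose and 39 fell, none by 2-fold, and the median was -0.05. Their share of the summed FPKM was 5.39% in control and 5.25% with the drug. The largest fall was that of RPS26 (-0.69) and the largest rise that of RPL13A (0.28). The counts moved to 3 and 63 after median ratio scaling and to 16 and 32 with the mitochondrial genes left out, so the balance of small changes depended on the scaling.

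Genes that supply translation and nucleotides were lower. Of 20 tested cytosolic aminoacyl-tRNA synthetases 17 fell and 2 rose (median -0.51). FARSB and FARSA, the subunits of the phenylalanine enzyme, fell by 1.35 and 1.03 on the log2 scale, QARS1 and CARS1 rose by 0.62 and 0.36, and SARS1 was not called. Of 21 tested genes of purine, pyrimidine and folate one-carbon synthesis 20 fell, 7 of them 2-fold (median -0.82). CTPS1, which makes CTP, measured 14.6, 15.7 and 15.4 FPKM in control and 3.79, 3.67 and 3.77 with RMC-6236, with no overlap (-1.77 ± 0.03). MTHFD2, a mitochondrial folate enzyme of dividing cells, went from 40.3 to 13.9 FPKM (-1.47). PPAT and PAICS, enzymes of purine synthesis, fell by 1.35 and 1.32 on the log2 scale, and CAD, which begins pyrimidine synthesis, by 1.01. The single member that rose was SHMT1 (0.23).

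Amino acid uptake and synthesis moved in the same direction for most members. Of 24 tested genes 16 fell, 5 of them 2-fold, and 5 rose. SLC7A5, the carrier of leucine and other large amino acids, went from 123 to 56.6 FPKM (-1.11), the glutamine carrier SLC1A5 from 169.5 to 83.7 FPKM (-1.01), and SLC38A5 from 42.8 to 14.7 FPKM (-1.48). Among the rises was the stress factor DDIT3 (0.72).

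Of 24 tested genes of glucose uptake and glycolysis 19 fell, but only SLC16A1, a lactate carrier, passed 2-fold (from 52.4 to 24.5 FPKM, -1.07). LDHA, which turns pyruvate into lactate, measured 335, 337 and 331 FPKM in control and 222, 221 and 219 with RMC-6236, a separated but smaller change of -0.60 ± 0.01. The liver-type phosphofructokinase gene PFKL and the kinase gene PFKFB2, which raises an activator of glycolysis, rose by 0.57 and 0.87. Of 60 tested nuclear genes of oxidative phosphorylation 34 rose and 10 fell, none by 2-fold, with a median of 0.12 beside 0.08 for all genes. NDUFB5 of complex I rose by 0.66, and ATP5MC1 of ATP synthase fell by 0.58 on the log2 scale. Of the 13 mitochondrially encoded subunits 5 rose and 4 fell, and their median turned from 0.06 to -0.03 under median ratio scaling. MT-ND6 and MT-ND5 rose by 0.76 and 0.69, and MT-ND2 fell by 0.26 on the log2 scale.

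Genes of cholesterol and fatty acid synthesis were lower in 16 of 26 tested cases, 2 of them at least 2-fold, and higher in 6, 1 of them at least 2-fold. FASN, the fatty acid synthase, went from 86.6 to 43.7 FPKM (-0.97), and ELOVL6, which lengthens its products, fell by 1.03 on the log2 scale. INSIG1, which holds the sterol sensor in the endoplasmic reticulum, rose by 0.82 and LSS, which closes the sterol rings, by 0.49, and SCD was not called.

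Lysosomal genes rose together. Of 38 tested genes of the lysosome and autophagy 34 rose, 10 of them at least 2-fold, and 3 fell, with a median of 0.59. Their share of the summed FPKM went from 0.312% to 0.598%. PSAP, the precursor of the saposins that help to break down sphingolipids, measured 109, 105 and 107 FPKM in control and 374, 377 and 368 with RMC-6236. This was a change of 1.79 ± 0.02 (adjusted p = 2.4e-16) with no overlap. The aspartic protease gene CTSD went from 187 to 397 FPKM (1.08), CTSA from 28.4 to 64.00 FPKM (1.15), and the cholesterol carrier gene NPC2 from 7.91 to 20.2 FPKM (1.25). The protease gene CTSS rose by 1.14. NPC1, the partner of NPC2 in cholesterol export, fell instead, from 21.5 to 9.60 FPKM (-1.08 ± 0.03). ATG16L1, of autophagosome formation, and the protease gene CTSL fell by 0.54 and 0.31 on the log2 scale.

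**Figure D3:**
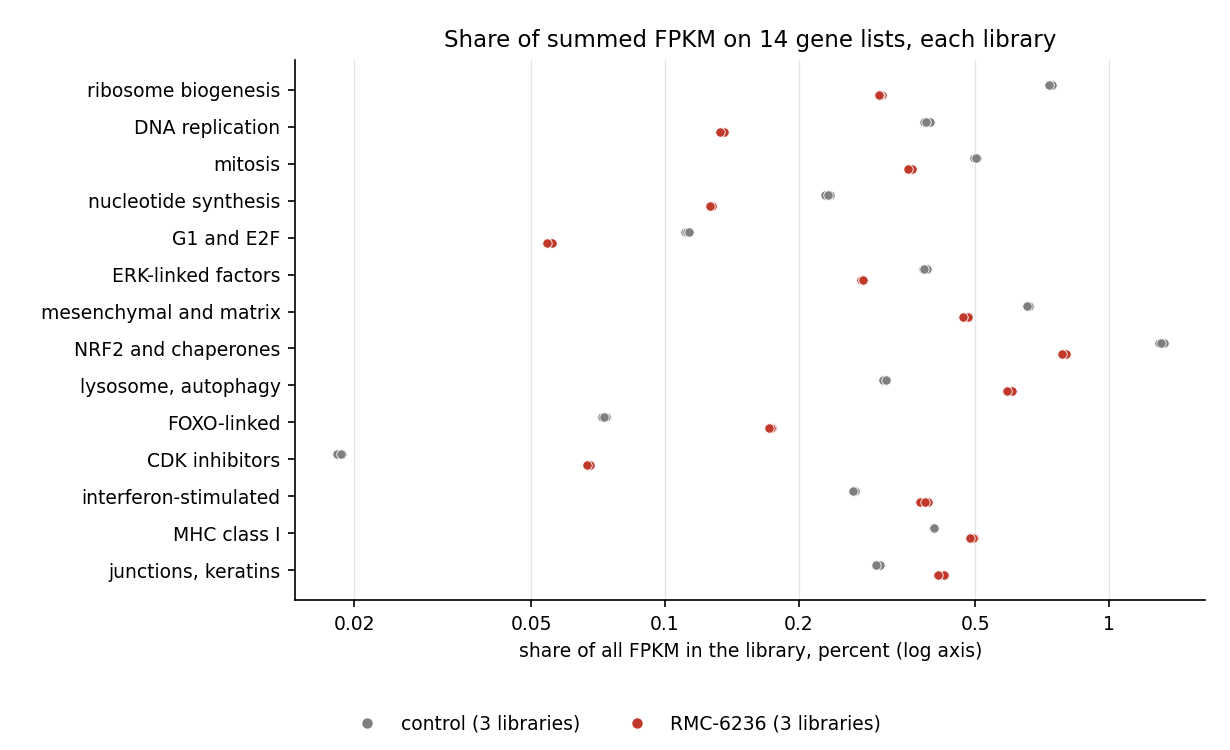
Share of all FPKM in a library, in percent on a log axis, that fell on each of 14 gene lists. Grey dots are the 3 control libraries and red dots the 3 RMC-6236 libraries. The upper 8 lists hold a smaller share and the lower 6 a larger share in all 3 treated libraries than in any control library. The widest ratio was that of the inhibitors of cyclin-dependent kinases, where most of the gain lay in a single member.

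BH3-only genes, whose products start mitochondrial apoptosis, rose more often than they fell. Of 8 tested members 5 rose, 3 of them at least 2-fold (37.5%, against 6.19% of all genes), and 2 fell. Their median was 0.64, and 2 were at least 2-fold higher after median ratio scaling. BBC3, which encodes PUMA, measured 3.03, 2.86 and 2.62 FPKM in control and 6.45, 7.41 and 6.89 with RMC-6236, with all treated values above all control values (1.05 ± 0.05, adjusted p = 1.4e-09). BAD and BNIP3L rose by 0.68 and 0.61. PMAIP1, which encodes NOXA, and BID fell by 0.31 and 0.25 on the log2 scale, and BIK was not called. Of 7 tested BCL2 guardians and effectors 2 rose and 3 fell, 2 of these at least 2-fold (28.6%, against 5.02% of all genes). The median was -0.13, and only 1 fell 2-fold with the mitochondrially encoded genes left out. BCL2L1, the gene of the guardian BCL-XL, went from 40.01 to 19.3 FPKM (-1.01 ± 0.03), and BAK1 was not called. BAX, an effector of pore formation, fell by 0.13 on the log2 scale, and was not called without control library 1 (-0.11, adjusted p = 0.059) or RMC-6236 library 1 (-0.092, adjusted p = 0.072), and BCL2 did not reach the level filter.

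Genes linked to p53 had no common direction. Of 13 tested members 7 rose and 4 fell, beside 45.8% and 34.6% of all genes, and the extremes lay far apart. TP53INP1, an autophagy-linked target, went from 0.229 to 6.26 FPKM (2.56 ± 0.05), whereas AEN, an apoptotic nuclease, went from 10.7 to 1.58 FPKM (-2.18 ± 0.08). CCNG1 rose by 1.10, and PLK3, the death receptor gene TNFRSF10B and MDM2 fell by 1.55, 0.90 and 0.34 on the log2 scale.

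Antigen presentation genes rose moderately. Of 21 tested genes of MHC class I chains, peptide loading and the immunoproteasome 17 rose, 2 of them 2-fold, and 3 fell, with a median of 0.57. B2M, the light chain of class I molecules, measured 106, 105 and 103 FPKM in control and 165, 164 and 163 with RMC-6236, a change of 0.64 ± 0.02 (adjusted p = 2.7e-12) with separated arms. NLRC5, the transactivator of class I genes, went from 2.73 to 6.13 FPKM (0.94), and PSMB10, a catalytic immunoproteasome subunit, from 9.80 to 20.9 FPKM (1.02). HLA-E, HLA-B and HLA-F rose by 0.92, 0.71 and 0.94. HLA genes are near-identical in stretches and variable between people, so reads may be split among them. TAP2, a subunit of the peptide transporter, fell from 16.4 to 8.76 FPKM (-0.84), the chaperone genes CALR and PDIA3 fell by 0.10 and 0.07 on the log2 scale, and PSME2 was not called.

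Interferon genes moved the same way. Of 24 tested receptors, sensors, STAT and IRF factors 19 rose, 5 of them 2-fold, and 3 fell (median 0.48). The kinase gene JAK1 measured 12.1, 12.04 and 11.6 FPKM in control and 24.6, 24.3 and 23.9 in treated cells, with no overlap (0.97 ± 0.03). IRF7, IFIH1, the gene of the RNA sensor MDA5, and its adaptor MAVS rose by 1.13, 1.04 and 0.98. SOCS1, a feedback inhibitor of JAK kinases, rose by 1.29 and IL10RB by 1.15. The DNA sensor gene CGAS fell from 6.48 to 2.83 FPKM (-0.97) while STING1, which acts after it, rose by 0.87, and IFNGR2 fell by 0.41 on the log2 scale.

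Of 45 tested interferon-stimulated effectors 41 rose, 5 of them 2-fold, and 1 fell, with a median of 0.62. IFITM1, which blocks the entry of viruses, measured 38.2, 37.5 and 34.99 FPKM in control and 79.4, 86.5 and 83.8 with RMC-6236 (1.15 ± 0.06, adjusted p = 1.5e-08), with all treated values above the control values. GBP1, which shares sequence with other guanylate-binding genes, went from 4.88 to 18.4 FPKM (1.72), IFI35 from 4.46 to 14.9 FPKM (1.54) and SAMD9L from 0.920 to 3.10 FPKM (1.09). Between the 2 single drugs these genes went both ways, with 17 higher and 20 lower with RMC-6236 than with tazemetostat and a median of -0.05. GBP1 was at 4.75, 5.11 and 4.70 FPKM with tazemetostat and 18.7, 18.7 and 17.7 with RMC-6236 (1.73 ± 0.04 for RMC-6236 minus tazemetostat, adjusted p = 6.2e-13), and GBP2 differed by 1.56. On the other side RSAD2 was at 6.03, 6.79 and 6.67 FPKM with tazemetostat and 2.44, 2.59 and 2.81 with RMC-6236 (-1.05 ± 0.07, adjusted p = 1.3e-08), and IFI6 differed in the same direction by -0.45.

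Secreted factors were divided. Of 31 tested chemokines and cytokines 14 fell, 7 of them at least 2-fold, and 11 rose, 3 of them 2-fold. Among all genes 34.6% fell and 45.8% rose, and 5.02% and 6.19% did so at least 2-fold. IL33, an alarmin of epithelial cells, measured 8.96, 9.19 and 9.12 FPKM in control and 0.415, 0.411 and 0.630 with RMC-6236. The change was -2.77 ± 0.06 (adjusted p = 1.7e-13), and all treated libraries were below 1 FPKM. CSF2, which encodes GM-CSF, went from 10.1 to 1.35 FPKM (-2.26), IL11 from 4.86 to 0.324 FPKM (-2.15) and CXCL8, a neutrophil chemokine, from 20.6 to 9.28 FPKM (-1.08). GDF15, a stress hormone that lowers appetite, fell by 1.80 on the log2 scale, the angiogenic factor gene VEGFA by 1.37, LIF by 1.04 and IL6 by 0.77. Rises were led by TNFSF10, the death ligand TRAIL, which measured 2.44, 2.61 and 2.33 FPKM in control and 12.3, 12.4 and 12.4 in treated cells, with no overlap (1.95 ± 0.04). CXCL6, CCL5, a T cell chemokine, and the macrophage growth factor gene CSF1 rose by 1.56, 1.29 and 0.98.

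Of 21 tested surface ligands of immune cells 9 rose and 10 fell, and their median changed sign with the scaling (0.05, and -0.02 after median ratio scaling). NT5E, the gene of CD73, which makes adenosine, measured 16.03, 16.5 and 15.8 FPKM in control and 2.95, 2.54 and 2.60 with RMC-6236, a fall with no overlap (-2.21 ± 0.06, adjusted p = 1.5e-12). PVR, the poliovirus receptor and a ligand of TIGIT, went from 38.6 to 11.7 FPKM (-1.64). The PD-1 ligand genes CD274 and PDCD1LG2 fell by 0.89 and 1.05 on the log2 scale. VSIR, the gene of the checkpoint protein VISTA, rose by 1.11 and NECTIN2 by 0.48, and CD47 was not called.

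Genes of epithelial junctions, polarity and keratins were higher more often than lower. Of 29 tested members 20 rose, 6 of them 2-fold, and 7 fell, 2 of them 2-fold (median 0.40). KRT19, a keratin of ducts, measured 118, 119.7 and 114 FPKM in control and 310.4, 321 and 316 with RMC-6236, with no overlap (1.42 ± 0.02, adjusted p = 1.6e-14). LLGL2, of basolateral polarity, went from 2.57 to 16.4 FPKM (2.29), TJP3, a tight junction scaffold, from 0.135 to 2.71 FPKM (1.71), and PKP2, of desmosomes, from 0.863 to 3.39 FPKM (1.24). F11R, the gene of the adhesion molecule JAM-A, rose by 1.29. CLDN2, the claudin of leaky tight junctions, fell from 14.2 to 3.09 FPKM (-1.89 ± 0.05), and CLDN1 and KRT81, a hair keratin with close paralogues, had changes of -0.84 and -1.65. KRT18 and TJP1 were not called.

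Among 13 tested epithelial transcription and splicing regulators, 7 rose and 3 fell, beside 45.8% and 34.6% of all genes. HNF4A, a factor of the classical pancreatic cancer programme, measured 3.84, 4.52 and 4.08 FPKM in control and 0.796, 0.933 and 0.692 in treated cells. The arms did not overlap, and the change was -1.51 ± 0.06 (adjusted p = 1.1e-10). GATA6, another factor of that programme, rose from 13.9 to 21.9 FPKM (0.62), SOX9, of the ducts, by 0.56 and KLF3 by 0.86. FOXA2, GATA4 and ELF4 were not called.

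Genes of the mesenchymal state and the matrix were divided. Of 29 tested members 12 rose, 3 of them 2-fold, and 16 fell, 7 of them 2-fold (median -0.20). Among all genes 45.8% rose and 34.6% fell. The falls in the list included genes of matrix breakdown, integrins and the plasminogen system. MMP1, a collagenase, measured 20.6, 20.9 and 20.2 FPKM in control and 1.41, 1.36 and 1.95 with RMC-6236, with no overlap and a change of -3.08 ± 0.07 (adjusted p = 1.6e-12). PLAUR, the urokinase receptor, went from 37.6 to 10.6 FPKM (-1.73). The integrin gene ITGA2 went from 62.5 to 14.2 FPKM (-2.06). MMP2, a gelatinase, rose instead, from 0.781, 0.898 and 1.10 FPKM to 10.7, 10.6 and 10.2, with no overlap (2.58 ± 0.06), and LAMA5 of epithelial basement membrane rose by 1.82.

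The factors that switch cells to a mesenchymal state did not share a direction. SNAI2 rose by 1.13, SNAI1 by 0.59 and ZEB2 by 0.55, while ZEB1 fell by 0.40 on the log2 scale. VIM, the filament gene of mesenchymal cells, measured 348, 350.4 and 338 FPKM in control and 306, 320.5 and 312 with RMC-6236, a small change of -0.14 ± 0.02. Beside these values, COL3A1, COL1A1 and LUM, markers of fibroblasts, were higher in all treated libraries, as in the summed marker levels above. COL3A1 was at 3.09 to 3.72 FPKM in control and 32.6 to 33.6 in treated cells, LUM at 12.2 to 12.98 and 59.2 to 61.9, and DCN, the other small proteoglycan, at 0.0497 to 0.112 and 1.004 to 1.16. The part of other cells in these results was not tested.

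Mucins, trefoil factors and gastric-type secreted genes gave 4 rises and 7 falls among 13 tested members, beside 45.8% and 34.6% of all genes. MUC6, a mucin of gastric glands, measured 0.661, 0.504 and 0.493 FPKM in control and 3.86, 4.34 and 4.41 with RMC-6236, and AGR2, which folds mucins, 5.70, 5.90 and 5.67 and 21.6, 21.1 and 22.3. Both rose without overlap, by 1.74 ± 0.07 and 1.75 ± 0.04. TFF2 and TFF1, trefoil peptides of the stomach, fell by 0.99 and 0.53 on the log2 scale, and MUC5AC by 0.18.

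Subunits of polycomb complexes and enzymes of DNA methylation had no common direction, with 14 rises and 16 falls among 36 tested members. Among all genes 45.8% rose and 34.6% fell. The list median of 0.00 became -0.07 under median ratio scaling. DNMT1, which copies methylation after replication, measured 38.03, 37.4 and 37.2 FPKM in control and 17.5, 17.8 and 18.5 with RMC-6236, without overlap (-1.03 ± 0.03). UHRF1, which brings DNMT1 to replicated DNA, went from 30.02 to 6.67 FPKM (-2.02), PHC2, of the first polycomb complex, fell by 1.54 and EPOP, of the second, by 1.34 on the log2 scale. EZH2, the methyltransferase that tazemetostat inhibits, fell from 15.8 to 9.77 FPKM (-0.64 ± 0.05, adjusted p = 3.3e-08). Its paralogue EZH1 rose from 3.75 to 7.40 FPKM (0.82), JARID2 by 0.90, DNMT3A by 0.77 and KDM6A, which removes the mark of EZH2, by 0.68.

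YAP and TEAD are the output of the Hippo pathway, and 12 of their 24 tested linked genes rose while 11 fell. The median was 0.07, and -0.02 after median ratio scaling. CCN2, a common target gene, measured 32.7, 31.2 and 32.3 FPKM in control and 10.2, 11.2 and 10.7 with RMC-6236, with no overlap (-1.497 ± 0.05). ANKRD1 went from 30.1 to 8.18 FPKM (-1.76), FJX1 from 33.7 to 5.57 FPKM (-2.40), and AMOTL1 fell by 1.42 on the log2 scale. TEAD2 and ARHGEF17 rose by 1.13 and 1.29, and YAP1 by 0.23.

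Among stress genes, several chaperones were lower and several redox enzymes higher. Of 32 tested genes linked to NRF2, heat shock and unfolded proteins 13 rose and 17 fell. HSPA8, the constitutive HSP70 chaperone, measured 589.9, 603 and 584 FPKM in control and 187, 185 and 188 with RMC-6236, a change of -1.66 ± 0.02 (adjusted p = 6.7e-16). The mitochondrial chaperone gene HSPD1 went from 365 to 153 FPKM (-1.25), and HSP90AA1 from 491 to 208 FPKM (-1.24). These large falls left the arms far apart. NFE2L2, the gene of NRF2, rose from 20.5 to 44.2 FPKM (1.07 ± 0.03). Its known targets went both ways. HMOX1, NQO1 and TXNRD1 rose by 1.57, 0.79 and 0.77, whereas SRXN1, which restores oxidised peroxiredoxins, fell from 69.4 to 36.8 FPKM (-0.90), and PGD, TXN and GCLM fell by 0.30, 0.17 and 0.17 on the log2 scale. The aldo-keto reductase genes AKR1C1 and AKR1C2 rose by 2.84 and 2.73, but they are near-identical and may share reads. Of 5 tested drug transporters 2 rose and 2 fell, and ABCC3 was the only one past 2-fold (from 7.78 to 18.4 FPKM, 1.14).

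**Figure D4:**
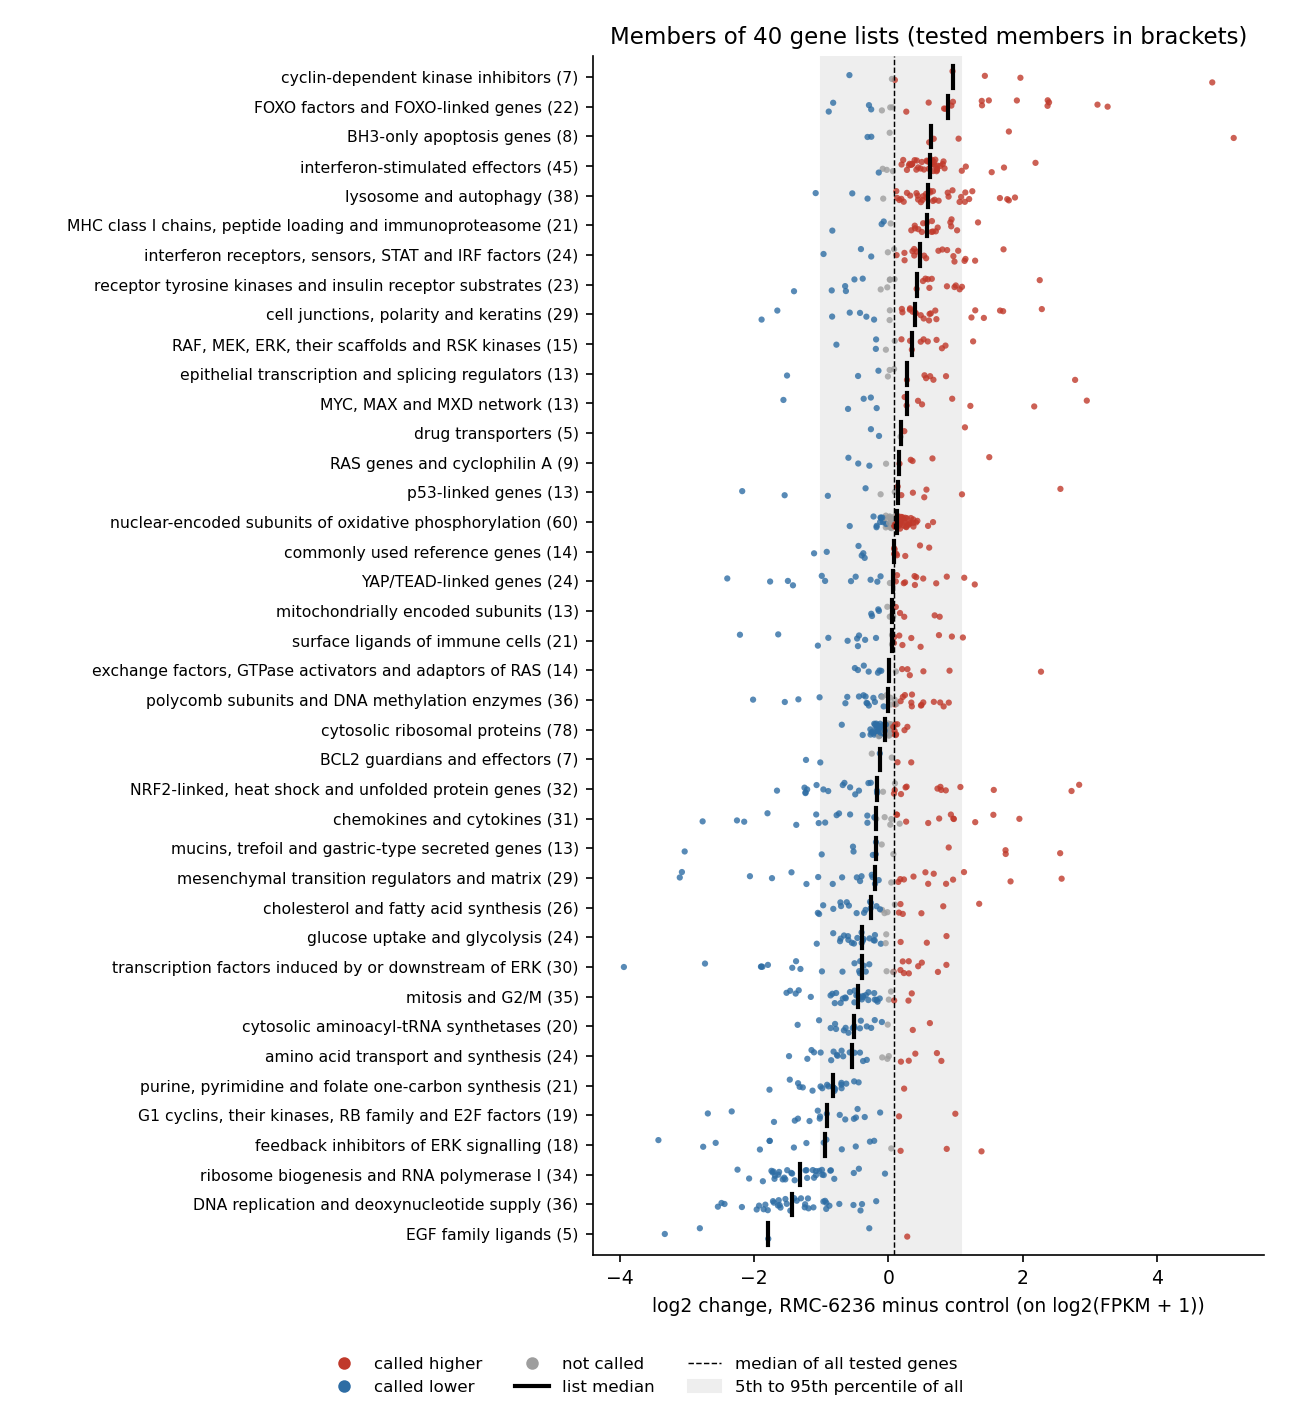
Log2 change of RMC-6236 minus control for each tested member of 40 gene lists, with 1 dot for each gene, ordered by the list median. Red dots were called higher, blue dots lower and grey dots were not called at an adjusted p of 0.05. Black ticks are list medians, the dashed line is the median of all tested genes (0.08) and the grey band their 5th to 95th percentiles (-1.01 to 1.09). Medians of the EGF family ligands, DNA replication and ribosome biogenesis lie left of the band, and that of no list lies right of it.

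Outside the lists, the rule of largest changes named the following genes. PPL, the desmosomal linker periplakin, measured 0.297, 0.384 and 0.279 FPKM in control and 14.7, 14.3 and 15.04 with RMC-6236 (3.57 ± 0.05, adjusted p = 8e-15), a near absence followed by a clear level. RRAD, a small GTPase that inhibits calcium channels, measured 40.7, 39.8 and 39.2 FPKM in control and 468, 489 and 458 in treated cells (3.53 ± 0.03). It was by far the most abundant of the 15 genes with the largest rises. CCN5, a relative of CCN2 that lacks its last domain, went from 0.114 to 9.81 FPKM (3.28), in the direction opposite to CCN2. SMPDL3A, a phosphodiesterase of the sphingomyelinase family, went from 2.02 to 26.01 FPKM (3.16), and RASL11A, a RAS-like protein linked to ribosomal RNA synthesis, from 0.519 to 12.4 FPKM (3.14). CLIC3, RIPOR3 and ZNF608 rose by 3.36, 3.20 and 3.19.

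The largest falls outside the lists included genes of the cell surface and matrix. HAS2, which makes hyaluronan, measured 42.8, 42.97 and 42.7 FPKM in control and 4.43, 4.03 and 4.04 with RMC-6236. TGM2, tissue transglutaminase, measured 195, 198 and 197 and 24.8, 24.97 and 25.7. Both arms were separated in each gene, with changes of -3.09 ± 0.04 and -2.92 ± 0.02. PTX3, a secreted pentraxin, went from 35.2 to 3.60 FPKM (-2.98), SEMA7A, a membrane-bound semaphorin, from 20.8 to 1.95 FPKM (-2.89), and the phosphate carrier gene SLC20A1 from 134 to 17.6 FPKM (-2.86). TRBJ2-1, a short joining segment of a T cell receptor locus, was listed at 75.04 to 85.1 FPKM in control and 8.23 to 11.5 in treated cells (-3.01); FPKM of so short a feature is uncertain.

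In absolute level, with mitochondrially encoded genes left out, the imprinted non-coding RNA H19 gained most. It measured 1226, 1222 and 1251 FPKM in control and 3381, 3404 and 3491 with RMC-6236, a gain of 2192 FPKM and a log2 change of 1.47 ± 0.01 (adjusted p = 4.4e-16). The ferritin genes FTL and FTH1, which store iron and have many pseudogenes, gained 1270.2 and 688 FPKM. TMSB4X, which binds free actin, gained 661 FPKM, and the actin genes ACTB and ACTG1, which are similar in sequence, gained 497 and 481. MT2A, a metallothionein with close paralogues, had the largest loss, from 1067, 1033 and 1032 FPKM in control to 226, 231 and 238 with RMC-6236 (-2.17 ± 0.03). Further losses in mean FPKM were those of the chaperone gene HSP90AB1, from 590.03 to 301 FPKM, of the tubulin gene TUBA1B, from 514 to 240.3 FPKM, of TIMP1, an inhibitor of matrix proteases, from 577 to 325 FPKM, of the chromatin protein gene HMGA1, from 415 to 169 FPKM, and of the splicing gene SNRPB, from 537 to 302 FPKM.

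The other single-drug arm of the same line allowed a direct comparison of RMC-6236 with tazemetostat. It shares the RMC-6236 libraries with the comparison above, so its calls are not separate evidence. RMC-6236 was higher than tazemetostat in 43.7% and lower in 36.7% of the 13358 genes at an adjusted p under 0.05, and 2-fold higher in 5.23% and lower in 6.06%. The largest differences included secreted inflammatory genes. IL33 was at 21.99, 20.4 and 20.7 FPKM with tazemetostat, with a difference from RMC-6236 of -3.89 ± 0.06 (adjusted p = 9e-15), and both arms lay on opposite sides of the control values given above. PTGS2, the gene of the prostaglandin enzyme COX-2, measured 133, 136 and 135 FPKM in control, 21.3, 20.7 and 19.8 with RMC-6236 and 256, 266 and 267 with tazemetostat (-3.61 ± 0.03). PI3, which encodes the protease inhibitor elafin, S100A9, a calprotectin subunit, the growth factor gene BMP7 and the secreted peptide gene VGF differed by -3.79, -3.49, -3.45 and -3.88, all lower with RMC-6236. In each of these 4 genes every tazemetostat value was above every control value and every RMC-6236 value below.

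Genes higher with RMC-6236 than with tazemetostat included COL3A1, FILIP1L and FBXO32. COL3A1, a fibrillar collagen, was at 1.58, 1.34 and 1.60 FPKM with tazemetostat against the 32.6 to 33.6 FPKM with RMC-6236 (3.77 ± 0.05). FILIP1L measured 1.01, 0.976 and 1.14 FPKM in control, 0.847, 0.620 and 0.740 with tazemetostat and 16.4, 17.3 and 17.3 with RMC-6236 (3.38 ± 0.05, adjusted p = 1.8e-14), so the tazemetostat values lay near or below control. FBXO32 differed by 3.26. Among the RAS pathway genes, SOS1 was at 8.89, 9.05 and 9.58 FPKM and DUSP2 at 13.4, 10.5 and 11.9 FPKM with tazemetostat, which for SOS1 gave a difference of 2.16 ± 0.03 and for DUSP2 one of -2.44 ± 0.08. H19 was at 579, 566 and 570.2 FPKM with tazemetostat, below the control, and differed from RMC-6236 by 2.58 ± 0.01.

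**Figure D5:**
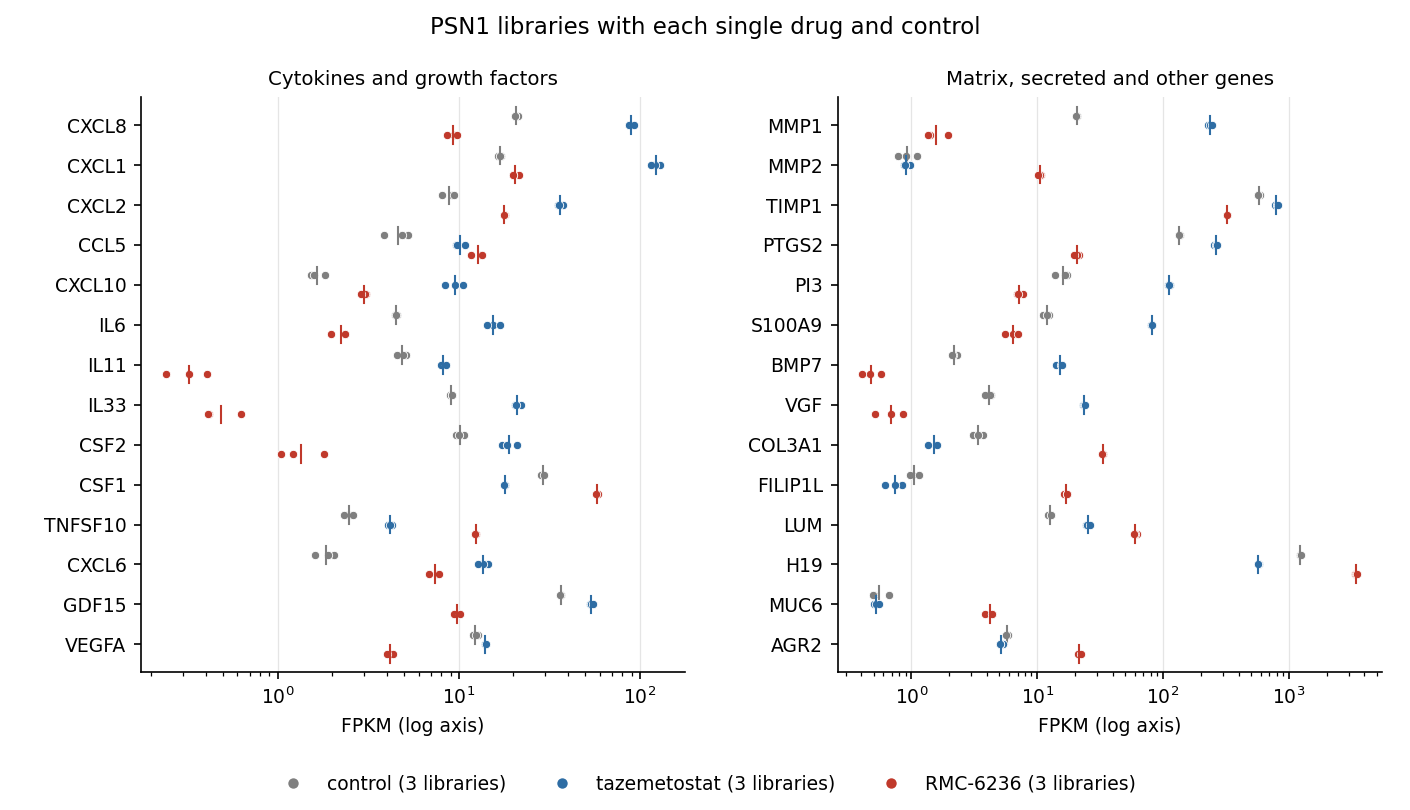
FPKM on a log axis for 14 cytokine and growth factor genes and 14 other genes in control (grey), tazemetostat (blue) and RMC-6236 (red), with 1 dot for each library and a tick at the mean of 3. CXCL8, IL6, IL33, CSF2, MMP1, PTGS2 and BMP7 lie above control with tazemetostat and below it with RMC-6236. COL3A1, H19, MUC6 and AGR2 are highest with RMC-6236.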

How the data were processed

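PSN1 libraries were made with the VAHTS stranded mRNA-seq kit and sequenced on a NovaSeq, per the labels' protocols. The authors deposited FPKM values for each gene and library. The submitters' processing notes name FastQC 0.11.2, STAR 2.5.3a, StringTie 1.3.1c and build hg38, and the strand setting of the counting is not given in the sources used here, so overlapping and antisense genes may share reads. No column was left unmapped (0), and 0 pairs of columns were identical.

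Genes at 1 FPKM or more in at least 3 of 12 libraries were tested on log2(FPKM + 1) with limma 3.58.1 in R 4.3.3 (statmod 1.5.0). The 4 arms of 3 libraries entered 1 fit with trended, robust moderation, and p-values were adjusted by Benjamini-Hochberg over all 13358 genes, with a threshold of 0.05. A 2-fold change is a called gene with a log2 change of at least 1. Errors of log2 changes are standard errors. Data were simulated for this comparison over 13358 genes, with independent normal noise of each gene's own spread within arms. The fit recovered 99 of 100 genes changed by 1 log2 unit and 98 of 100 changed by 0.5, with 18 false calls among 13158 unchanged genes. The changed genes were drawn only from those above the median level, so recovery among lower genes was not tried. They were also a far smaller share than the 80.4% called in the data. The adjustment depends on that share, so the number of false calls does not carry over to the data.

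The 40 gene lists and the compared arms were chosen with earlier results of these data known, so list counts are descriptions beside the share of all genes. Genes named outside the lists were the 15 largest rises and 15 largest falls among called genes without overlap, with a higher arm mean of at least 5 FPKM and no library at 0, the 8 largest gains and 8 largest losses in mean FPKM without mitochondrial genes, and the 10 largest remaining differences from tazemetostat. Some of these genes and some list members are not reported here. Within lists, called members with the largest changes and members against the direction were named. Alternatives were a pseudocount of 0.1, no filter, a filter of 5 FPKM, median ratio scaling, each library left out, a replicate block and, chosen after seeing the data, the mitochondrial genes left out with rescaling. A planned description of promoter letters was not made, since no human sequence was used here.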

Additional observations from a re-analysis of the deposited data

How the results depend on the processing

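With RMC-6236 against control, the counts of genes past 2-fold were 827 higher and 670 lower. A pseudocount of 0.1 FPKM raised the first to 1735, and 1496 of the 1497 genes of the 2 counts were among the 2705 genes then past 2-fold. A filter of at least 5 FPKM, which tested 8072 genes in place of 13358, left 3472 genes called higher. Against tazemetostat, the pseudocount of 0.1 gave 1374 higher and 1259 lower genes past 2-fold, and the filter of 5 FPKM left 3446 called higher. Against control, median ratio scaling gave 709 higher and 794 lower genes past 2-fold, which turned the balance of the counts, and the filter of 5 FPKM gave 591 and 571. Of all these counts 5 moved by more than 1.5 times, namely 1735, 3472, 1374, 1259 and 3446. The other counts stayed within 1.5 times under the pseudocount of 0.1 and the filter of 5 FPKM. All counts did so without a filter, with median ratio scaling and with the compared arms alone. The same held with moderation that used no trend and without the mitochondrially encoded genes. Median ratio scaling moved the share of higher genes among those called from 56.9% to 50.8%, and it kept 1379 of the 1497 genes past 2-fold. Leaving out 1 library at a time gave 818 to 836 higher and 663 to 685 lower genes past 2-fold against control, and kept 1441 to 1462 of them.

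Library numbers gave no sign of pairing the samples, though 3 libraries an arm cannot exclude it. The deviations of same-numbered control and RMC-6236 libraries from their arm means had correlations of 0.00021, 0.017 and 0.015. With the number as a replicate block the fit called 6097 genes higher and 4588 lower, 829 and 669 of them past 2-fold.

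Of 351 changes of single genes in the text, 17 of them against tazemetostat, 319 kept direction and side of the threshold under all alternatives run. The signs that turned were those of genes not called in the comparison as reported, and the cause was not tested. After median ratio scaling these were BAK1 (-0.033), CDKN3 (-0.029), PSME2 (-0.050), TJP1 (-0.060), KRT18 (-0.066), GATA4 (-0.060), MERTK (-0.030), KLF10 (-0.013), CCNB2 (-0.078), CDC25C (-0.032), RICTOR (-0.0050), AXL (-0.063) and CD47 (-0.018), of which KRT18 and AXL were then called. That scaling also called ARAF (-0.12), RAP1B (-0.11), SCD (-0.10), ELK4 (-0.10), FGFR4 (-0.16) and SARS1 (-0.095) lower. Other calls gained were those of GAB2 (0.11 to 0.47 in 4 alternatives), EPHB2 and FGFR4 with moderation that used no trend, PSME2, ELF4 and KLF10 without the mitochondrially encoded genes, ELF4 without control library 1, KLF10 and TOMM6 without control library 2, and FGFR4 without RMC-6236 library 2. With the mitochondrially encoded genes left out, the signs that turned were those of SARS1 (0.012), SCD (0.0085), FOXA2 (0.015) and PDGFRA (0.0024), none of which was then called. Leaving out single libraries gave ranges across 0 for SARS1 (-0.045 to 0.015), BIK (-0.063 to 0.088), TJP1 (-0.015 to 0.063), KRT18 (-0.0067 to 0.037), FOXA2 (-0.040 to 0.031), PDGFRA (-0.059 to 0.014), GLUL (-0.0056 to 0.019), GATA4 (-0.0022 to 0.040), MERTK (-0.025 to 0.068), CCNB2 (-0.016 to 0.024) and CDC25C (-0.018 to 0.10). FPKM hold no depth, so no limit of detection can be given for low genes.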

Other observations

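Genes that are often used as references in quantitative PCR were not level. Of 14 tested reference genes 8 rose and 6 fell, and their median changed sign with the scaling (0.09, and -0.0003 after median ratio scaling). TFRC, the transferrin receptor, measured 58.9, 59.3 and 59.3 FPKM in control and 27.2, 26.4 and 27.2 with RMC-6236, with no overlap (-1.11 ± 0.02, limma adjusted p = 1.2e-13). HPRT1, of purine salvage, went from 49.2 to 25.5 FPKM (-0.92), PPIB, a relative of cyclophilin A in the endoplasmic reticulum, from 167 to 122 FPKM (-0.45) and ACTB from 1287 to 1784 FPKM (0.47). The fall of TFRC and the gains of the ferritin genes FTL (0.58) and FTH1 (0.98) concern uptake and storage of iron. These genes, and those of the next paragraph that no list held, were chosen after their values were seen.

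A few further genes are given for their values. NEAT1, the scaffold of paraspeckles, measured 21.5, 21.6 and 22.1 FPKM in control and 71.5, 72.3 and 72.8 with RMC-6236, and MALAT1, of nuclear speckles, 9.90, 10.1 and 9.43 and 27.7, 26.4 and 28.2. Both rose without overlap, by 1.69 ± 0.02 and 1.40 ± 0.04. IGF2, the imprinted neighbour of H19, went from 52.8 to 90.04 FPKM (0.76 ± 0.03). The metallothionein genes MT1X and MT1E, paralogues of MT2A that may share reads with it, fell by 2.07 and 0.61 on the log2 scale.

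Some genes had values that a later look might start from. GLUL, the glutamine synthetase, was listed at 0.0163, 0.0309 and 0.0511 FPKM in control and 0.0340, 0.0382 and 0.0384 with RMC-6236, near 0 in both arms, and at 4.89, 4.95 and 5.05 FPKM with tazemetostat and 12.5, 12.7 and 12.1 with the combination. TOMM6, of the mitochondrial import channel, ranged from 6.34, 2.91 and 29.98 FPKM in the 3 control libraries to 3.49, 3.32 and 1.33 with RMC-6236 and 30.6, 36.1 and 39.3 with tazemetostat. It was not called against control (adjusted p = 0.091), and its difference from tazemetostat (-3.34 ± 0.71) rests on values that vary widely within an arm. Without control library 2 it was called lower with RMC-6236 (-2.08, adjusted p = 0.019).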
